A study of Mus musculus and blank sample with 768 samples.

Results

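Chemokines and their receptors were followed across single cells sorted from mouse tumours, lymph nodes and blood. The set was taken by gene symbol: the numbered Ccl, Cxcl, Ccr, Cxcr, Ackr and Xcr genes listed in both tables, with Pf4, Ppbp, Cx3cl1, Cx3cr1 and Xcl1 added. The genes analysed here were 60 of the 51734 symbols in the tables, 40 ligands and 20 receptors. The rule itself uses no measured value.

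Chemokines are small secreted proteins that direct the movement of leukocytes and other cells. Their conventional receptors couple to inhibitory G proteins in the receiving cell, whereas the atypical receptors of the Ackr group take up or transport ligands without that coupling. Endothelial cells display chemokines on their surface, and in lymph nodes the chemokines of lymphatic sinuses and of high endothelial venules guide leukocytes into and through the node.

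Cells were sorted by flow cytometry on GFP and on the surface proteins CD45, which marks leukocytes (gene Ptprc), and CD31, which marks endothelium (gene Pecam1). Each cell went into a well of its own, and its full-length cDNA was made by a modified form of SMART-seq2. Tumour CLEC were CD45- CD31+ GFP+ cells that the labels describe as endothelial cells of the Csf1r lineage (plates KM3 and KM4, with 84 and 85 cells kept). Tumour EC were CD45- CD31+ GFP- (plate KM2, 84 cells), and tumour macrophages were CD45+ CD31- GFP- (plate KM1, 81 cells). In lymph nodes (LN), all 3 gates were CD45- CD31+, and they differed in GFP: LN GFPlow, which the labels call potential CLEC (79 cells from pools B, C and D), LN GFP+ (98 cells from pools A, B and C) and LN GFP- (74 cells from the same 3 pools). Blood gave 7 cells kept from a CD45- CD31+ GFP+ gate. The GFP labelling is described only by the Csf1r lineage; the driver line, strain, age and tumour type are not given in the sources used here.

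Before filtering, wells with a cell held between 3 and 3123112 reads in genes, and 592 of 766 cells were kept; the median per gate lay between 609243.5 and 1238819 reads. The labels do not tie wells to animals. A gate was therefore 1 sample, and gates were not tested against each other. Each tumour plate held a single gate, so plate and gate cannot be told apart in the tumour. Levels are CPM, reads of a gene per 1000000 reads in genes over the summed cells of a gate, with 95% intervals from the exact Poisson distribution, and the intervals of cell shares, also 95%, are exact Clopper-Pearson ones. Intervals cover counting error only, since reads without molecular identifiers are not independent molecules and the intervals do not include differences between animals. In gates summed in this way, fewer expressing cells and fewer reads per cell give the same CPM, so the share of cells with a read is given beside it.

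The sort markers followed their gates in tumour and lymph node. Ptprc was at 0 CPM in tumour CLEC and tumour EC and at 334.2 CPM in tumour macrophages, and it was found in 1 cell of each LN gate. Pecam1 was at 1172, 1085 and 5.91 CPM in tumour CLEC, tumour EC and tumour macrophages, and at 947, 622 and 1902 CPM in LN GFPlow, LN GFP+ and LN GFP- cells. The blood cells went against their label: Ptprc was found in 5 of 7, Pecam1 in 3 of 7, all of which also held Ptprc reads, and the endothelial gene Cdh5 and the lymphatic gene Prox1 were at 0. They were left out of every comparison and of every value given by cluster or class, although they were clustered with the LN cells.

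Promoters of 4 ligands that the lymph node and tumour results turn on are shown first. Ccl20, Cxcl1 and Cxcl10 were higher in LN GFP+ than in LN GFP- cells, and Cxcl9 peaked in 1 cluster of tumour endothelial cells. The promoters come from RefSeq on build GRCm38.p6, and each covers 250 bases before to 50 bases after the annotated start, on the strand of the gene. Capitals mark matches to the kappaB consensus, the motif named for NF-kappaB, or to GAAANNGAAA, a repeat found in interferon-stimulated response elements; both strands were searched. The regions are chr1:83116516-83116815 on the plus strand for Ccl20, chr5:90890995-90891294 on the plus strand for Cxcl1, chr5:92328030-92328329 on the minus strand for Cxcl9 and chr5:92348840-92349139 on the minus strand for Cxcl10.
Ccl20: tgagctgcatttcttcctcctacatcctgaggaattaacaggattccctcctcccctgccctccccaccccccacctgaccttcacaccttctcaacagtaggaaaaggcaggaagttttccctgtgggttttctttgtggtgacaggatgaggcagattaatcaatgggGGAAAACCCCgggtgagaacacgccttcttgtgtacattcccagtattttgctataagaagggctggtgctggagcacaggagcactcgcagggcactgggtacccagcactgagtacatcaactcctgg
Cxcl1: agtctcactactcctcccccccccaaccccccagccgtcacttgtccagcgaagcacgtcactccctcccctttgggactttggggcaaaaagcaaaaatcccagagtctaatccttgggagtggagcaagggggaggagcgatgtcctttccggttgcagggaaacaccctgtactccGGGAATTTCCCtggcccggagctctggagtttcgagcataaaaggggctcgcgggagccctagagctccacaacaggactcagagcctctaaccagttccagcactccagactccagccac
Cxcl9: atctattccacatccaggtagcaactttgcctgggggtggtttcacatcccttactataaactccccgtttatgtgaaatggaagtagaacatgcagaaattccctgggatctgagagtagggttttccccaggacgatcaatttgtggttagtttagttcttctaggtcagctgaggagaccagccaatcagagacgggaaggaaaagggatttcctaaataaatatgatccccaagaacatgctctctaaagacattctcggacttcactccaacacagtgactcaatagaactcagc
Cxcl10: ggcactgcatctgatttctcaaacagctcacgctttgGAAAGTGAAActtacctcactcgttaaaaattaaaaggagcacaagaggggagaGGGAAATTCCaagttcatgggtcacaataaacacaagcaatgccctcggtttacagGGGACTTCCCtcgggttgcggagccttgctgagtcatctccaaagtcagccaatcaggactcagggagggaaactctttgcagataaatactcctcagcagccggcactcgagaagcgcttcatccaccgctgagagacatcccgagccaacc

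Counting the start base as 0, Ccl20 held 1 kappaB match between -80 and -71. Cxcl1 held 2 that overlap on opposite strands, between -71 and -62 and between -70 and -61. Cxcl10 held kappaB matches at -159 to -150 and at -103 to -94, and GAAANNGAAA at -213 to -204, whereas these letters were not in the Cxcl9 window. Of the 60 members, 46 had a promoter in the RefSeq table, and 8 of these (17.4%) held the kappaB consensus, against 1175 of all 27025 promoters (4.35%). GAAANNGAAA was in 3 of the 46 (6.52%) and in 943 of all promoters (3.49%). The other members with a kappaB match were Cxcl2, Cxcl3, Ccl9, Ackr2 and Ccr3, and the others with GAAANNGAAA were Ccl19 and Cxcl14. A match describes letters and is not a measured site.

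Tumour macrophages had reads of the most members, 33 of 60, and the LN gates split between a few ligands each. The members summed to 865 CPM in tumour CLEC, 1084 CPM in tumour EC and 8105 CPM in tumour macrophages, and to 4097, 1718 and 8144 CPM in LN GFPlow, LN GFP+ and LN GFP- cells. Ligands made up 485, 652 and 6952 CPM of these sums in tumour CLEC, tumour EC and tumour macrophages, and 3946, 1651 and 7603 CPM in LN GFPlow, LN GFP+ and LN GFP- cells. A single gene held much of the sum in the lymph node: Ccl21a gave 73.3% of ligand CPM in LN GFPlow and 61.3% in LN GFP- cells, and Ccl20 gave 33.7% in LN GFP+ cells. In tumour macrophages no ligand gave more than the 14.6% of Ccl4.

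With every cell thinned to 100000 reads, which left out 11 shallower cells, a tumour macrophage held reads of a median of 9 ligands, with 7 and 10 as the quartiles and a range of 4 to 13. The median was 1 ligand in tumour CLEC and in tumour EC, with none in 47.3% of tumour CLEC and 21.95% of tumour EC. It was 2 in each of the LN gates, and no ligand was found in 14.1% of LN GFPlow, 6.32% of LN GFP+ and 19.7% of LN GFP- cells. The median number of receptors was 2 in tumour macrophages, 1 in tumour CLEC, tumour EC and LN GFP- cells, and 0 in LN GFPlow and LN GFP+ cells.

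A ligand is described by name where it reached 20 CPM and 25% of cells in at least 1 tumour or LN gate, and a receptor at 5 CPM and 10% of cells, which took 19 ligands and 7 receptors. The blood cells were left out of this rule, and no count or ranking over gates below includes them. Of the 34 others, 14 had no read in any gate: Ccl1, Ccl11, Ccl17, Ccl22, Ccl26, Ccl27b, Ccl28, Cxcl3, Cxcl5, Cxcl15, Ccr3, Ccr6, Ccr7 and Cxcr1. Just inside the rule were Cxcl9 in tumour EC (25% of cells) and Ccl8 in macrophages (27.2%), and just outside were Ccl5 (113.9 CPM in 22.2% of macrophages) and Ccl21a (4662 CPM in 20.3% of LN GFP- cells). Ccl21a is described all the same, chosen after its values were seen. The remaining 18 lay between 0.0105 CPM for Ccr9, the gut-homing receptor, and 12.8 CPM for Ccl25, its ligand, in the gate where each was highest. By the number of genes that met the rule, macrophages had 12 ligands and 4 receptors, LN GFP+ cells 6 and 1, tumour EC 2 and 4, LN GFPlow cells 2 and 1, LN GFP- cells 1 and 3, and tumour CLEC 0 and 2. These counts depend on the cutoffs. In tumour CLEC, Cx3cl1 came close to the rule, at 50.7 CPM in 23.1% of cells. Cxcl9 and Cxcl12 met the level there but not the share, with 15.4% and 14.2% of cells. Cxcr4 met the share there but not the level.

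**Figure D1:**
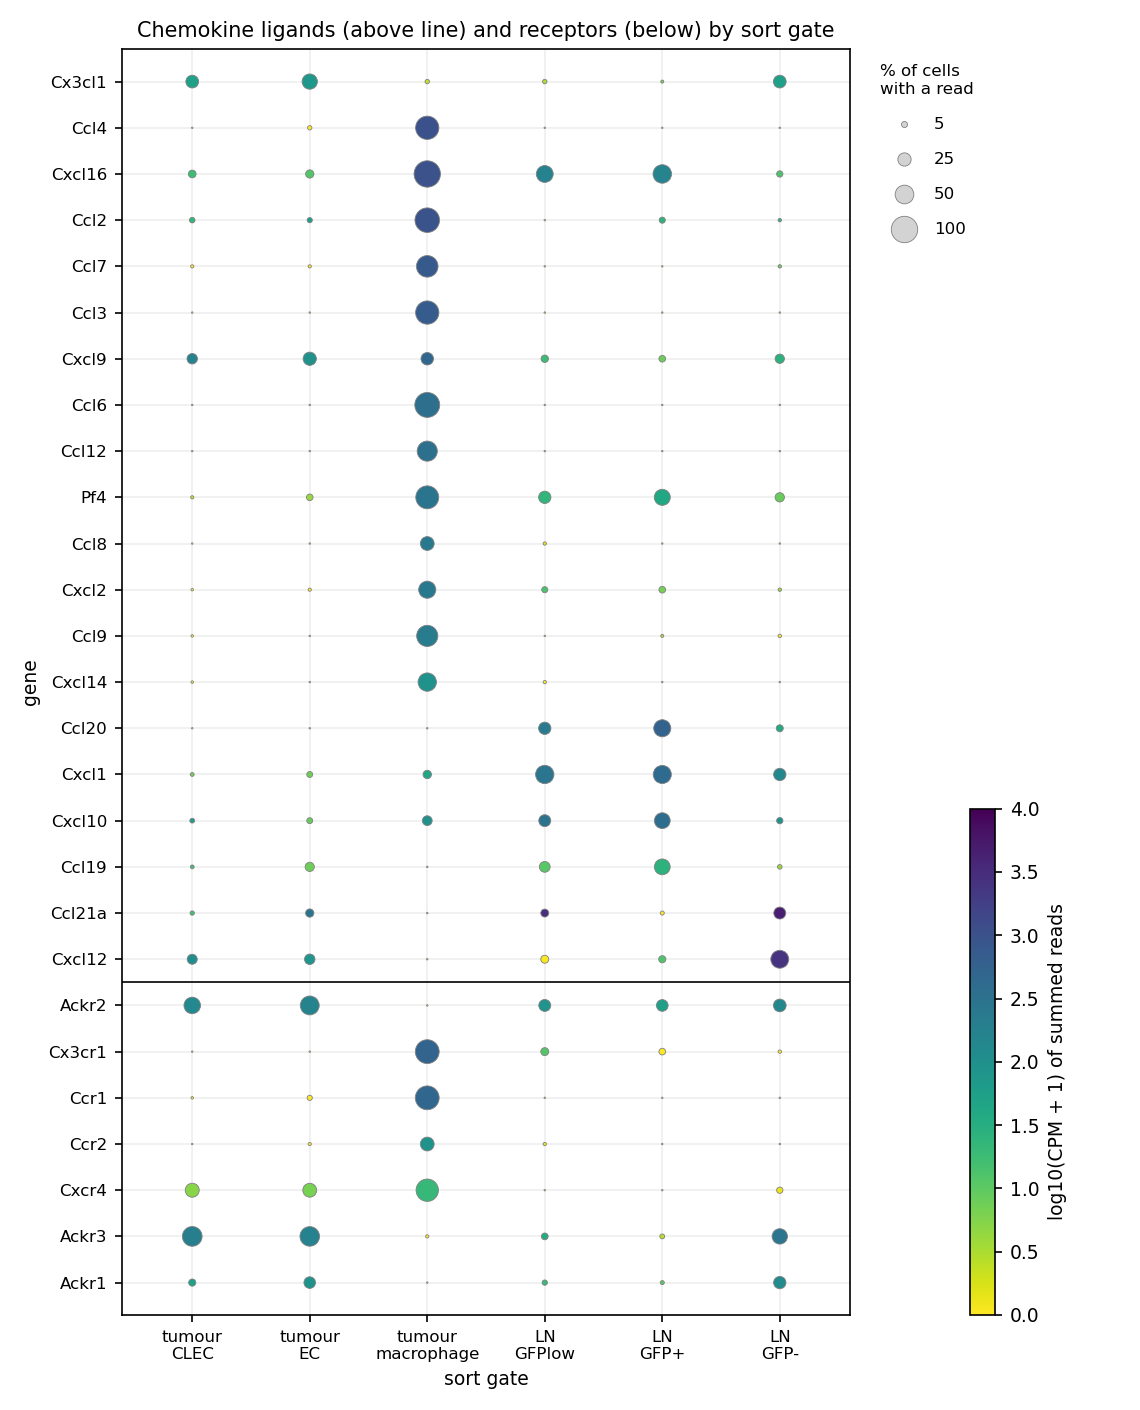
Named members and Ccl21a (rows, ligands above the line, receptors below) in the 6 gates (columns): colour is log10 of CPM plus 1 of the summed reads of a gate, and circle size is the percentage of cells with a read. Most Ccl ligands are darkest in macrophages, Ccl20, Cxcl1, Cxcl10 and Ccl19 have their highest share of cells or level in LN GFP+ or LN GFPlow cells, and Ccl21a and Cxcl12 are darkest in LN GFP- cells.

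The monocyte-attracting ligands Ccl2, Ccl7, Ccl8 and Ccl12, all ligands of Ccr2, were products of the macrophage gate. Ccl2 was at 23.1 CPM in tumour CLEC, 60.1 CPM in tumour EC and 960 CPM in macrophages, where 86.4% of cells held it. Of the Ccl2 reads in tumour EC, 94.5% came from 1 cell. Ccl7 was at 771 CPM in 66.7% of macrophages, Ccl12 at 338.8 CPM in 58.02% and Ccl8 at 242.2 CPM in 27.2%, and 1 cell gave 44.1% of the Ccl8 reads. Ccl2 was found in 50 of 53 thinned macrophages that held Ccl7 (94.3%, against 86.4% of all thinned macrophages).

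The macrophage inflammatory proteins Ccl3 and Ccl4, which attract monocytes and T cells, were each found in 77.8% of macrophages, at 703 and 1013 CPM. Of 62 thinned macrophages with a read of Ccl3, 53 also held Ccl4 (85.5%, against 77.8% of all thinned macrophages). Ccl6 and Ccl9, myeloid ligands of Ccr1 in mouse, were at 362.7 CPM in 88.9% and 221.9 CPM in 64.2% of macrophages. Per kilobase of exon, Ccl4 was the highest ligand of the gate at 1535 CPM per kb, followed by Ccl7 (963), Ccl3 (918) and Ccl2 (843).

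Cxcl16, a membrane-bound ligand of Cxcr6 that also binds oxidised lipoproteins, was the member found in every macrophage, at 974 CPM (95% interval 967.5 to 981.2) and in 100% of cells (95.5% to 100%). It was at 16.9 CPM in tumour CLEC and 11.3 CPM in tumour EC. In lymph nodes it was at 169.2 CPM in 40.5% of LN GFPlow cells, 156.2 CPM in 48.98% of LN GFP+ cells and 12.7 CPM in 5.4% of LN GFP- cells. Macrophages were above both tumour endothelial gates, and the LN gates with GFP were above LN GFP- cells. Cxcl16 shares 552 of its 3021 exon bases with Zmynd15 on the opposite strand, and Cxcl10 shares exon bases with Art3; how strand was used in counting is not given in the sources used here, so such reads cannot be told apart.

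Pf4, platelet factor 4, was likewise shared between macrophages and LN cells with GFP. It was at 1.21 CPM in tumour CLEC, 3.11 CPM in tumour EC and 292.9 CPM in macrophages, where 75.3% of cells held it. It was at 22.9 CPM in 21.5% of LN GFPlow cells, 40.6 CPM in 36.7% of LN GFP+ cells and 7.51 CPM in 12.2% of LN GFP- cells. Of 5 platelet markers, Gp1ba alone had reads in LN GFP+ cells, and the list summed to 8.15, 14.2 and 0.021 CPM in LN GFPlow, LN GFP+ and LN GFP- cells. The list of 15 macrophage markers summed to 341.7, 595 and 85.9 CPM in the same gates, with 6, 5 and 2 of its genes in at least 5% of cells. Adgre1, C1qc, Fcgr1, Tyrobp and Spi1 were at 0 in LN GFPlow cells, and Itgam was at 0 in LN GFP+ cells. The part of these markers in the Pf4 and Cxcl16 levels was not tested.

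Other ligands of the macrophage gate were Cxcl2, a neutrophil attractant that binds Cxcr2, at 236.9 CPM in 41.98% of cells, and Cxcl14 at 93.9 CPM in 48.1%. Cxcl2 was at 12.8, 5.88 and 2.81 CPM in LN GFPlow, LN GFP+ and LN GFP- cells.

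Over whole gates, the lymph node ligands formed a group highest in LN GFP+ cells and a group highest in LN GFP- cells. Ccl20, the ligand of Ccr6 on dendritic cells and lymphocytes, had no read in the tumour, where the limit for 0 cells was a share of 1.78% in tumour CLEC, 3.57% in tumour EC and 3.70% in macrophages. In LN GFP+ cells it was at 557 CPM (552 to 562) in 41.8% of cells (31.9% to 52.2%), in LN GFPlow cells at 232.6 CPM in 21.5%, and in LN GFP- cells at 36.6 CPM in 6.8%. LN GFP+ cells with a read held a median of 941 CPM and at most 9228 CPM.

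By pool, Ccl20 was at 509, 343.6 and 151.3 CPM in LN GFPlow cells of pools B, C and D. In LN GFP+ cells it was at 186.9, 1141 and 568 CPM in pools A, B and C, and in LN GFP- cells at 0.0444, 84.9 and 0.216 CPM in the same pools. LN GFP+ cells were above LN GFP- cells in each of pools A, B and C, and the lowest LN GFPlow pool lay above the highest LN GFP- pool.

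Cxcl1, a neutrophil attractant that binds Cxcr2, was at 481, 592 and 170 CPM in LN GFPlow cells of pools B, C and D. It was at 564, 306.2 and 292.7 CPM in LN GFP+ cells and at 196.1, 96.9 and 1.94 CPM in LN GFP- cells of pools A, B and C. LN GFP+ cells were above LN GFP- cells in every pool, and LN GFPlow cells were above LN GFP+ cells in pools B and C. Over all pools the shares of cells were 48.1%, 46.9% and 21.6% in LN GFPlow, LN GFP+ and LN GFP- cells.

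Cxcl10, an interferon-inducible ligand of Cxcr3, was at 644, 35.4 and 283.5 CPM in LN GFPlow cells of pools B, C and D. It was at 143.9, 762 and 388 CPM in LN GFP+ cells and at 4.26, 210 and 0 CPM in LN GFP- cells of pools A, B and C. Here the gates overlapped, since the LN GFP- cells of pool B were above the LN GFPlow cells of pool C and the LN GFP+ cells of pool A. The shares of cells were 20.3%, 35.7% and 5.4% in LN GFPlow, LN GFP+ and LN GFP- cells.

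Ccl19, the Ccr7 ligand that guides dendritic cells and T cells, was a low member with 10.04, 25.5 and 3.15 CPM in 16.5%, 35.7% and 2.7% of LN GFPlow, LN GFP+ and LN GFP- cells. By pool it was at 2.77, 7.32 and 12.1 CPM in LN GFPlow cells, at 31.6, 3.92 and 36.8 CPM in LN GFP+ cells and at 1.33, 5.85 and 0 CPM in LN GFP- cells. In pool B the LN GFP+ level was below the LN GFP- level, and in pools A and C it was above.

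Ccl21a, the other Ccr7 ligand and the entry signal of high endothelial venules, had the highest level of any member. It was at 2893 CPM in LN GFPlow, 0.021 CPM in LN GFP+ and 4662 CPM (4642 to 4681) in LN GFP- cells, but in 8.9%, 2.0% and 20.3% of cells (11.8% to 31.2% in LN GFP- cells). By pool it was at 0, 0 and 4142 CPM in LN GFPlow cells of pools B, C and D, at 0, 0 and 0.0733 CPM in LN GFP+ cells and at 5687, 2386 and 9749 CPM in LN GFP- cells of pools A, B and C. Few cells gave these sums: 10 LN GFP- cells and 2 LN GFPlow cells, both of pool D, exceeded 1000 CPM, and no LN GFP+ cell did. Those 2 cells gave 99.8% of the LN GFPlow reads. Ccl21a has near-identical copies in the mouse genome that the counting could split, and Ccl21b had 35 reads in all, so the Ccl21a level is uncertain.

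Cxcl12, the ligand of Cxcr4 and Ackr3 and a product of blood endothelium and stroma, was at 0.0946, 11.5 and 2521 CPM (2507 to 2535) in LN GFPlow, LN GFP+ and LN GFP- cells, in 8.9%, 7.1% and 45.9% of cells (34.3% to 57.9% in LN GFP- cells). By pool it was at 0.0747, 0 and 0.120 CPM in LN GFPlow cells, at 11.95, 22.9 and 0 CPM in LN GFP+ cells and at 2595, 2819 and 844 CPM in LN GFP- cells. The lowest LN GFP- pool was far above the highest pool of the other gates. In the tumour, Cxcl12 was at 109.2 CPM in CLEC and 80.6 CPM in EC and had no read in macrophages.

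Cx3cl1, a membrane-bound ligand that tethers Cx3cr1-bearing cells to endothelium, was at 50.7 CPM in 23.1% of tumour CLEC and 73.6 CPM in 33.3% of tumour EC, against 1.37 CPM in macrophages. In lymph nodes it was at 2.36, 6.46 and 53.5 CPM in LN GFPlow, LN GFP+ and LN GFP- cells. The LN GFP+ cells of pools A, B and C held 0, 0 and 22.5 CPM and the LN GFP- cells 105.6, 5.8 and 11.2 CPM, so that in pool C the LN GFP+ cells were the higher ones.

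**Figure D2:**
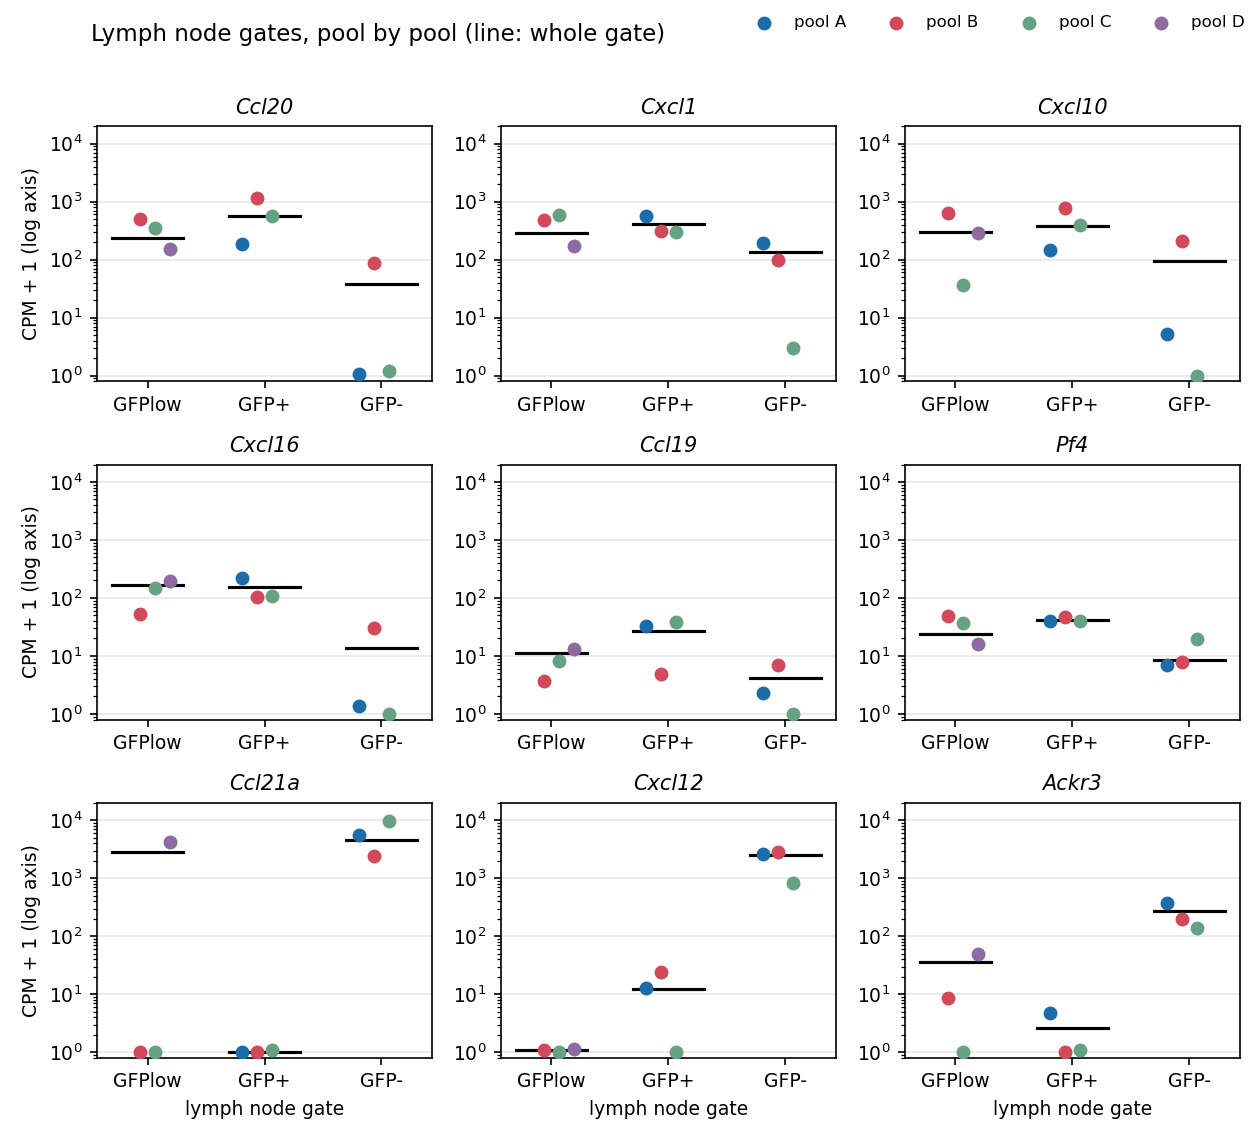
CPM plus 1, on a log axis, of 8 ligands and Ackr3 in LN GFPlow, LN GFP+ and LN GFP- cells; each point is 1 pool, coloured by pool, and the line is the whole gate. Ccl20 and Cxcl1 are higher in LN GFP+ than in LN GFP- cells in each of pools A, B and C, and the LN GFP- pools of Cxcl12, at 844 CPM or more, stand above every pool of the other gates.

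Over the tumour and LN gates, of the 7 named receptors the 4 that signal were highest in macrophages and the 3 atypical ones in endothelial gates. In macrophages Cx3cr1, the fractalkine receptor, was at 536 CPM in 81.5% of cells, Ccr1 at 484 CPM in 81.5% and Ccr2, the monocyte receptor for Ccl2, at 92.5 CPM in 27.2%. Per kilobase of exon the order was Ccr1 (170.7 CPM per kb), Cx3cr1 (119.05) and Ccr2 (13.7). Of 21 thinned macrophages with Ccr2, 18 also held Cx3cr1 (85.7%, against 80.2% of all thinned macrophages). Cxcr4, the signalling receptor of Cxcl12, was at 4.19 CPM in 27.8% of tumour CLEC, 5.56 CPM in 27.4% of tumour EC and 19.9 CPM in 71.6% of macrophages, a share of 45.7% in macrophages thinned to 100000 reads. It had no read in LN GFPlow or LN GFP+ cells, which allows shares of up to 3.80% and 3.06%, and was at 0.356 CPM in LN GFP- cells.

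Ackr3, a scavenger of Cxcl12 and Cxcl11, was at 192.5 CPM in 55.6% of tumour CLEC (47.8% to 63.2%) and 171.3 CPM in 54.8% of tumour EC (43.5% to 65.7%), against 0.0125 CPM in macrophages. The 2 CLEC plates held 167.2 and 216.1 CPM. In lymph nodes it was at 35.4, 1.66 and 276.7 CPM in LN GFPlow, LN GFP+ and LN GFP- cells. By pool this was 7.62, 0 and 49.2 CPM in LN GFPlow cells, 3.71, 0 and 0.11 CPM in LN GFP+ cells and 378.2, 197.2 and 135.6 CPM in LN GFP- cells, and each LN GFP- pool was above every pool with GFP.

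Ackr2, which degrades inflammatory Ccl ligands and is known from lymphatic endothelium, was the receptor that met the naming rule in all 5 endothelial gates. It was at 130 CPM in 39.1% of tumour CLEC and 160.7 CPM in 51.2% of tumour EC, and at 86.2, 55.3 and 136.98 CPM in 20.3%, 19.4% and 22.97% of LN GFPlow, LN GFP+ and LN GFP- cells. It had no read in macrophages. The LN GFP- pools ranged from 3.02 to 184.6 CPM and enclosed all LN GFP+ and LN GFPlow pools. Ackr2 and Ackr3 were often in the same tumour cell: 41 of 61 thinned tumour CLEC with Ackr2 also held Ackr3 (67.2%, against 53.3% of all tumour CLEC), and 24 of 40 tumour EC (60%, against 53.7%).

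Ackr1, which carries chemokines across venular endothelium, was at 50.7 CPM in 7.1% of tumour CLEC and 94.4 CPM in 19.05% of tumour EC, with no read in macrophages. It was at 18.8, 9.71 and 125.5 CPM in LN GFPlow, LN GFP+ and LN GFP- cells, where 21.6% of LN GFP- cells held it. Ackr1 shares part of its exons with Cadm3 on the same strand, and reads there cannot be told apart between the genes. Of the 15 thinned LN GFP- cells with Ccl21a, 11 also held Ackr1 (73.3%, against 21.1% of all), whereas Ackr1 was in 3 of 31 cells with Cxcl12.

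The pairing of ligand and receptor across gates was read from 45 textbook pairs of 19 receptors and 34 ligands. Both partners met the naming rule in 16 pairs, in the same gate in 9 of them. Of these, 8 were in macrophages: Ccr2 with Ccl2, Ccl7, Ccl8 and Ccl12, and Ccr1 with Ccl3, Ccl6, Ccl7 and Ccl9. The other was Cxcl12 with Ackr3 in LN GFP- cells. There the partners were mostly in different cells, since 6 of 31 thinned cells with Cxcl12 held Ackr3 (19.4%, against 32.4% of all LN GFP- cells).

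In 7 pairs the partners met the rule in different gates. Cx3cl1 met it in tumour EC and Cx3cr1 in macrophages of the tumour. Cxcl12 met it in LN GFP- cells, and Cxcr4 in tumour EC and macrophages. The others joined Ccl2 of macrophages to Ackr1 and Ackr2, Ccl3 and Ccl4 of macrophages to Ackr2, and Cxcl1 of LN GFPlow and LN GFP+ cells to Ackr1 of tumour EC and LN GFP- cells. The ligands of Ackr2 were thus high in the macrophage gate and the receptor in the endothelial gates.

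For 8 pairs the ligand alone met the rule. The receptors of the main lymph node ligands belonged here: Ccr6 (Ccl20) and Ccr7 (Ccl19) had no read in any tumour or LN gate, and Cxcr2 (Cxcl1 and Cxcl2) reached at most 0.419 CPM. Cxcr3, the receptor of Cxcl9 and Cxcl10, was at 9.74 CPM in 3.7% of macrophages, Cxcr6 (Cxcl16) at 0.836 CPM, and Ccr8 (Ccl8) at 6.06 CPM from 1 macrophage. No gate was sorted for lymphocytes, neutrophils or dendritic cells, which carry several of these receptors. The blood cells, left out here, held reads of 4 of 5 B cell markers, which summed to 3508 CPM. The receptor alone met the rule in 5 pairs and neither partner in 16.

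**Figure D3:**
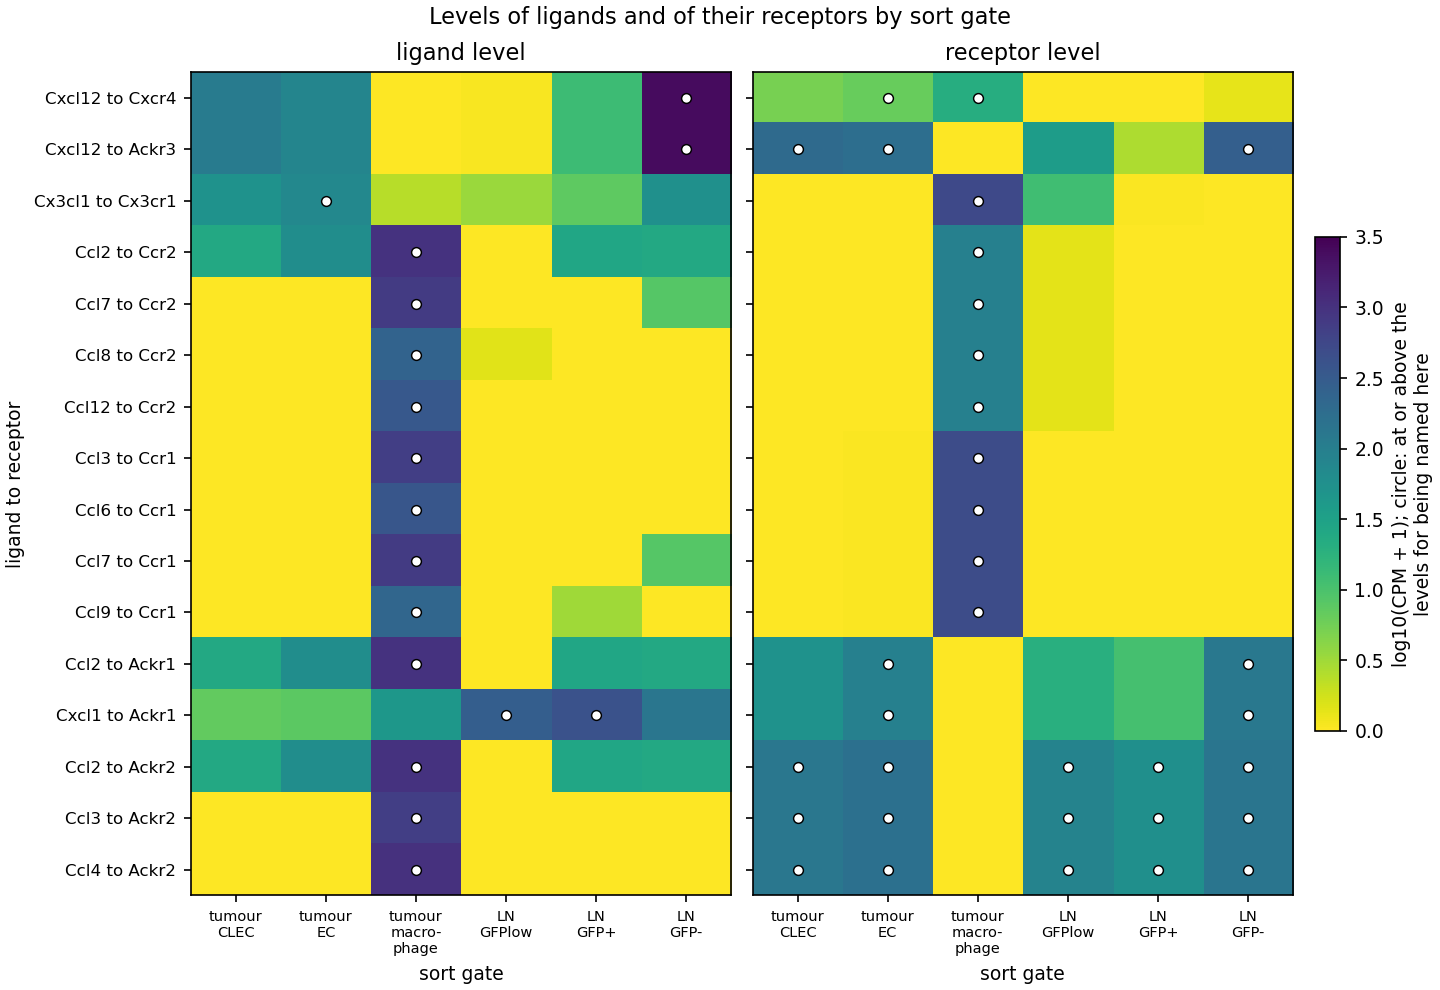
The 16 pairs whose ligand and receptor both met the naming rule (rows), with the ligand's level in the left panel and the receptor's in the right one, by gate (columns); colour is log10 of CPM plus 1, and a circle marks a gate that met the rule. The 8 pairs of Ccr1 and Ccr2 have both circles in macrophages, whereas Ackr1 and Ackr2 have theirs in endothelial gates and their Ccl ligands in macrophages.

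The LN GFP+ gate was set against LN GFP- cells over pools A, B and C. To be counted as measured, a member needed 1 CPM and reads in 5% of cells in either gate, and it counted as higher or lower at 2-fold or more in CPM plus 1. Of 17 measured members, 6 were higher in LN GFP+ cells, beside 20.1% of all 11140 measured genes, and 8 were lower, beside 19.2%. All 6 higher members were ligands: Ccl20 (log2 ratio 3.89), Cxcl16 (3.52), Ccl19 (2.68), Pf4 (2.29), Cxcl10 (2.04) and Cxcl1 (1.62). The lower members were Ccl21a (-12.16), Cxcl12 (-7.66), Ackr3 (-6.71), Ackr1 (-3.56), Cx3cl1 (-2.87), Cxcl9 (-1.79), Ackr2 (-1.29) and Ccl25 (-1.05). The median over the 17 was -0.41, and over all measured genes 0.04. Without pool A the Cx3cl1 ratio turned to 0.68 and that of Cxcl9 was -0.85, and without pool B that of Ackr2 was -0.81.

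The GFP gates of the lymph node differ in which endothelial cells they hold, so the members were also read by cluster. Cells were clustered without the members and marker genes, and clusters were named from marker lists. Sinus-floor-lymphatic-like cells made up 79.7% of LN GFPlow, 87.8% of LN GFP+ and 9.46% of LN GFP- cells. Over these cells Ccl20 was at 406 CPM, Cxcl1 at 357.9 CPM, Cxcl10 at 352.4 CPM and Cxcl16 at 165.8 CPM. Blood-endothelial-like cells were 31 LN GFP- cells, and Cxcl12 was at 6751 CPM in 96.8% of them, with Cx3cl1 at 127.6 CPM in 42%.

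High-endothelial-venule-like cells, 15 of LN GFP- and 2 of LN GFPlow, held Ccl21a at 41226 CPM in 94% and Ackr1 at 508 CPM in 76%. All 12 lymph node cells with more than 1000 CPM of Ccl21a were in this class. Other lymphatic-like cells, 21 of LN GFP- and 3 of LN GFPlow and led by Pkhd1l1, held Ackr3 at 607 CPM in 79% and Ackr2 at 367.8 CPM in 46%, with no read of Cxcl12. Ackr1 was thus highest in the class of Ccl21a, and Ackr3 in a class without Cxcl12, although 26% of blood-endothelial-like cells also held Ackr3. With a coarser clustering, at a Leiden resolution of 0.5, no class was named high-endothelial-venule-like. A cluster of 48 cells held 5 of 6 high endothelial venule markers and 10 of 10 blood endothelial ones. It was named blood-endothelial-like for the latter, and it held Ccl21a at 16688 CPM in 35% and Cxcl12 at 4036 CPM in 69%. Unnamed cells were then 29.1% of LN GFPlow cells, against 13.9% before. A cluster of 23 cells, 11 of LN GFPlow and 12 of LN GFP+, stayed unnamed because it was led by predicted genes. It held 5 of 6 sinus-floor and 7 of 10 lymphatic markers, as did several clusters named sinus-floor-lymphatic-like. Ccl20 was at 465 CPM and Cxcl1 at 384.2 CPM in this cluster.

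Within sinus-floor-lymphatic-like cells the gates lay closer. Ccl20 was at 243.96 CPM in 63 LN GFPlow, 555 CPM in 86 LN GFP+ and 355.1 CPM in 7 LN GFP- cells. Cxcl1 was at 286.1, 430 and 230 CPM and Cxcl10 at 307.7, 381.4 and 559 CPM in the same order of gates. Over these cells alone, LN GFP+ against LN GFP- gave log2 ratios of 0.64 for Ccl20, 0.57 for Cxcl16, 0.15 for Ccl19, 0.53 for Pf4, 0.90 for Cxcl1 and -0.55 for Cxcl10, all within 2-fold. Of 13 members measured over these cells, Ackr2 was lower in LN GFP+ cells (-2.01), and 5 that were low in the class were higher: Ccl2, Ccl27a, Cxcl2, Cxcl12 and Ackr1. The LN GFP- side of this comparison rests on 7 cells, and in none of these 5 genes did more than 1 of them hold a read.

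**Figure D4:**
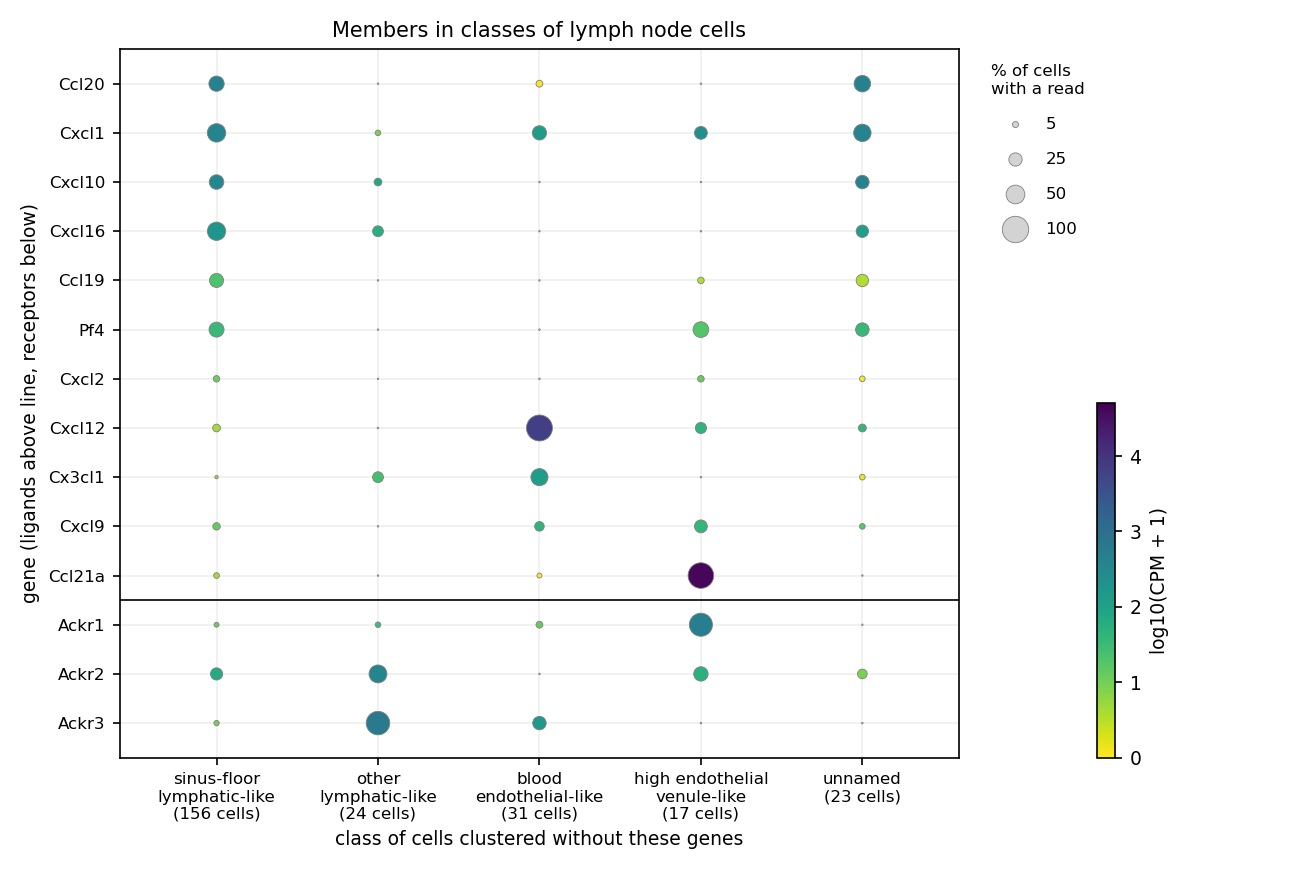
Members (rows, ligands above the line) in the classes of LN cells (columns): colour is log10 of CPM plus 1 over the cells of a class, and circle size is the percentage of cells with a read. Ccl20, Cxcl1 and Cxcl10 are high in sinus-floor-lymphatic-like cells, Cxcl12 in blood-endothelial-like cells, Ccl21a and Ackr1 in high-endothelial-venule-like cells, and Ackr3 and Ackr2 in other lymphatic-like cells.

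The sinus-floor-lymphatic-like class was itself uneven. In the cluster numbered 3, Cxcl1 was at 1087 CPM in 71% of cells and Cxcl10 at 727 CPM in 65%, whereas the cluster numbered 4 held 64.2 CPM of Cxcl1. Ccl20 was at 644 CPM in 46% of the cluster numbered 7 and at 33.4 CPM in 11% of the cluster numbered 6 (18 LN GFPlow and 9 LN GFP+ cells). Within LN GFP+ cells thinned to equal depth, 14 of 39 cells with Ccl20 held Cxcl1 (35.9%, against 47.4% of all 95). In LN GFPlow cells the share went the other way, with 10 of 16 (62.5%, against 47.4% of all 78). Of the cells with Cxcl10, 19 of 32 LN GFP+ cells (59.4%) and 9 of 15 LN GFPlow cells (60%) held Cxcl1.

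LN GFPlow cells could be set against the other LN gates in pools B and C only, with 29 LN GFPlow, 55 LN GFP+ and 34 LN GFP- cells; the LN GFPlow cells are the same in both comparisons. Against LN GFP- cells, 5 of 15 measured members were higher, beside 25.3% of all genes, and 5 were lower, beside 30.5%. The higher members were Cxcl2 (log2 ratio 5.18), Cxcl1 (2.75), Ccl20 (2.59), Pf4 (2.09) and Cxcl16 (2.06), and the lower ones Ccl21a (-11.87), Cxcl12 (-11.21), Ackr1 (-6.55), Ackr3 (-5.36) and Cxcl9 (-2.59). Ccl21a had no read in these LN GFPlow cells and was at 3743 CPM in LN GFP- cells. No bound on the fold is given, since few cells held its reads. The 2 LN GFPlow cells above 1000 CPM of Ccl21a were both of pool D, which this comparison left out. The Cxcl16 ratio was 0.80 without pool C, and without pool B that of Pf4 was 0.94 and Cxcl9 had no read in either gate. Over sinus-floor-lymphatic-like cells alone, 22 LN GFPlow and 6 LN GFP- cells, Ccl20 (0.29), Cxcl16 (0.15) and Pf4 (0.44) were within 2-fold, and Cxcl1 (1.18) and Cxcl2 (5.51) were not.

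Against LN GFP+ cells, 2 of 10 measured members were higher in LN GFPlow cells, beside 20.5% of all genes, and 3 were lower, beside 25.4%. The higher ones were Cxcl2 (3.74) and Ccl27a (1.78). The lower ones were Ccl20 (-1.01), Ccl19 (-1.81) and Cxcl12 (-3.55), and the Cxcl12 ratio was -0.10 without its highest cell, and without pool B the gene had no read in either gate. The Ccl20 ratio was -0.72 without pool B and that of Ccl19 -0.39 without pool C, both within 2-fold. Cxcl16 (-0.01), Pf4 (-0.03), Ackr2 (0.48), Cxcl10 (-0.84) and Cxcl1 (0.85) were within 2-fold.

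In the tumour, the share of members 2-fold apart between CLEC and EC was near that of all genes. Of 13 measured members, 1 was higher in tumour CLEC, beside 6.95% of all 10971 measured genes, and 1 was lower, beside 8.25%. The lower member was Ccl21a, at 15.2 CPM in CLEC and 296.9 CPM in EC (log2 ratio -4.20), and it exceeded 1000 CPM in 2 tumour CLEC and 5 tumour EC. The higher member was Ccl19, at 15.6 CPM in CLEC and 6.66 CPM in EC (1.11), with 31.99 CPM on plate KM3 and 0.190 CPM on plate KM4. Its ratio turned to -2.32 without the highest cell of each gate and to -2.69 with plate KM4 alone. The direction thus rests on 1 plate and on the highest cells. Ccl19 was found in 1.78% of tumour CLEC, against 5.14% of the cells of both gates together.

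The atypical receptors were within 2-fold between tumour CLEC and tumour EC, with log2 ratios of 0.17 for Ackr3, -0.31 for Ackr2 and -0.88 for Ackr1. Cxcr4 (-0.34), Cxcl12 (0.43), Cx3cl1 (-0.53), Cxcl9 (0.76), Cxcl16 (0.55) and Pf4 (-0.89) were also within it. Cxcl9, an interferon-inducible ligand of Cxcr3, was at 165.8 CPM in 15.4% of tumour CLEC, 97.3 CPM in 25% of tumour EC and 479 CPM in 22.2% of macrophages, where 1 cell gave 50.8% of the reads. The CLEC plates held 77.8 and 248.1 CPM of it, on either side of tumour EC. Cxcl10 was at 61.9 CPM in tumour CLEC, all on plate KM4, and at 7.79 CPM in tumour EC. Few cells gave these levels, since 2.96% of tumour CLEC and 3.56% of the cells of both gates together held a read. Cxcl11 had reads in tumour CLEC alone, at 12.1 CPM in 3.6% of cells. GENCODE annotates Cxcl11 as a polymorphic pseudogene, and the strain is not given, so its reads need not mean a working ligand. It also shares 1582 of its 3794 exon bases with Gm2673 on the opposite strand, and reads there cannot be told apart. The median of the 13 ratios was -0.31, and over all genes -0.12.

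Against macrophages, 5 of 25 measured members were higher in tumour CLEC, beside 24.2% of 11551 genes, and 19 were lower, beside 19.7%. The higher ones were Ackr3 (log2 ratio 7.58), Ackr2 (7.03), Cxcl12 (6.78), Ackr1 (5.69) and Cx3cl1 (4.45). Macrophages had no read of Ackr2, Cxcl12 or Ackr1. Ackr2 was thus at least 3463-fold and Cxcl12 at least 2917-fold higher in tumour CLEC, where 39.1% and 14.2% of cells held them. No bound is given for Ackr1, which 7.1% of tumour CLEC held. These bounds are on counted reads, and no read in 81 macrophages still allows a share of up to 3.70% of them. The lower ones ran from Ccl4 (-9.99), Ccl7 (-9.57) and Ccl3 (-9.46) to Cxcr4 (-2.01) and Cxcl9 (-1.52), and Cxcl10 (-0.62) was within 2-fold. The Cxcl9 ratio was -0.78 without its highest cells and -0.95 with plate KM4 alone. The median of the 25 was -6.56, against 0.08 over all genes.

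**Figure D5:**
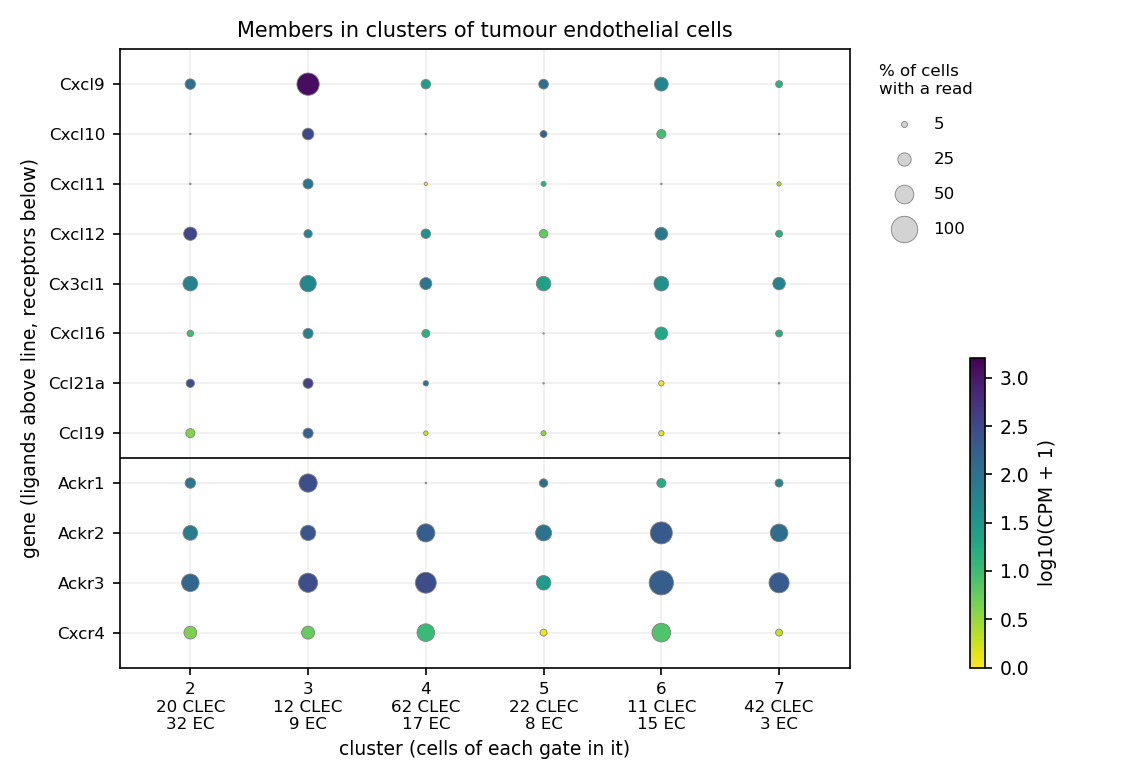
Members (rows, ligands above the line) in the clusters of tumour CLEC and EC (columns, with the cells of each gate): colour is log10 of CPM plus 1 over the cells of a cluster, and circle size is the percentage of cells with a read. Cxcl9 peaks in the cluster numbered 3, at 1235 CPM, whereas Ackr2 and Ackr3 are found in all 6 clusters.

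By cluster, Cxcl9 stood out in the tumour cluster numbered 3, which held 12 CLEC and 9 EC and was led by the interferon-inducible genes Ubd, Gbp6, Ifit3b and Iigp1. Cxcl9 was at 1235 CPM in 71% of its cells, with Cxcl10 at 311.7 CPM in 19%, Cxcl11 at 85.6 CPM in 14% and Ackr1 at 271.3 CPM in 48%. In the largest endothelial cluster, numbered 4 (62 CLEC and 17 EC), Cxcl9 was at 24.98 CPM, whereas Ackr3 was at 284.7 CPM in 62% and Cxcr4 was found in 44% of cells. Cxcl12 was highest in the cluster numbered 2 (20 CLEC and 32 EC), at 328.1 CPM in 25%. Ackr3 was lowest in the cycling cluster numbered 5, at 27.7 CPM in 30%. In macrophages, Ccl2 was at 1128 CPM in 100% of the 11 cells of the cycling cluster and 921 CPM in 84% of the 70 others.

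Genes that handle or transmit chemokine signals were read from 3 further lists. The first held 20 genes tied to chemokine handling, among them heparan sulphate enzymes and receptors of other ligands. Of these, 15 were measured between LN GFP+ and LN GFP- cells. In LN GFP+ cells 6 were higher and 1 was lower, beside 20.1% and 19.2% of all genes. The median was 0.61, against 0.04 over all genes. The higher ones included Gpr182, a scavenging receptor of lymphatic and sinusoidal endothelium (609 CPM in LN GFP+ and 193.2 CPM in LN GFP- cells), the protease Mmp9 (1144 and 71.8 CPM) and the heparan sulphate proteoglycans Sdc1 (247.3 and 36.05 CPM) and Sdc4 (140.6 and 36.8 CPM). The lower one was Ext1, a heparan sulphate polymerase (6.53 and 21.6 CPM). The second list held 16 inducers of chemokine transcription and their regulators, all measured. The NF-kappaB subunit Relb (270 and 117.9 CPM) and the interferon receptor chain Ifngr2 (299.3 and 81.1 CPM) were higher. Tnfrsf1a was lower and 13 were within 2-fold. Of 15 measured genes of receptor signalling, 5 were higher and 2 lower. The 2 of 16 inducers that were higher are a smaller share than that of all genes.

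Between tumour CLEC and tumour EC, where 6.95% of all genes were higher and 8.25% lower, the lists were read in the same way. Of the handling genes, Ext1 (121.1 CPM in CLEC and 48.2 CPM in EC) and Mmp2 were higher and Ccrl2, Sdc1 and Sdc4 were lower among 16 measured. Of the 16 inducers none was higher, and Tnfrsf1b and Il1r1 were lower. Of 13 measured signalling genes, Rgs2 and Jak2 were higher and none was lower. Against macrophages, tumour CLEC were lower in Rgs1 (0.00656 CPM in CLEC and 1973 CPM in macrophages), a regulator of chemokine receptor signalling, and in Dock2, a leukocyte migration factor (0 and 99.02 CPM), among 7 higher and 7 lower of 18, beside 24.2% and 19.7% of all genes.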

How the data were processed

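The authors deposited raw read counts per gene for 768 wells in 2 tables, per the file headers 1 column for each well, with 0 columns left without a sample. Of the upstream tools, the submitters' processing notes list STAR 2.4.1b, Subread 1.4.6-p2 and FastQC 0.11.4, with the build mm10; the settings are not given in the sources used here. Per the labels' protocols, cDNA amplification ran for 20 cycles, and Nextera XT was used for the libraries. Values were checked to be whole numbers, and the counts deposited by the authors were summed over duplicate symbols and used without other normalisation.

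A cell was kept if it had 50000 reads and 1000 genes or more and no more than 25% mitochondrial reads. Wells took 1 sorted cell each, and doublets were not called. Kept cells of a gate were summed and scaled to CPM in Python 3.11.15 with pandas 2.3.3 and scipy 1.17.1; folds against 0 reads use a floor of 3 reads over the gate, and a share of 0 allows 3 cells over the cells of the gate. Ratios were taken as log2 of CPM plus 1. TMM factors came from edgeR 4.0.16 in R 4.3.3, for scaling alone. The ratio script was tested on simulated data. Cells were clustered with scanpy 1.11.5 (2000 variable genes, 20 components, 15 neighbours, Leiden resolution 1) without members and markers, separately for tumour and for lymph node and blood. Clusters were named by the number of markers of a class found in them, at least 3 and more for some classes. Where a cluster met the rule for high endothelial venules but held every blood endothelial marker, it was named blood-endothelial-like. Clusters led by predicted genes were left unnamed whatever their markers. These rules for clusters were chosen with the data in view. Positions are from GENCODE vM21 on GRCm38.

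Groups follow the labels. The 60 members, the lists, the pairs and the naming rule (20 CPM and 25% of cells for ligands, 5 CPM and 10% for receptors) were chosen with earlier results of these data known, as were the promoters shown and the motifs searched. Alternatives covered the pseudocount, cell and gene filters, scaling, thinning, a Leiden resolution of 0.5, the highest cell, single plates and pools, and sinus-floor-lymphatic-like cells alone, the last added after the data had been seen. Some single genes are not reported here.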

Additional observations from a re-analysis of the deposited data

Results flagged for a closer look

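The 7 blood GFP+ cells entered no comparison, and 8 members had reads in them above the level that 3 reads would give. Ccr2 was at 271.5327 CPM, in 2 cells that both held Ptprc reads. Ccl6 was at 180.3478 CPM in 1 cell and Ccl9 at 72.9883 CPM in 1 cell. Ppbp, a platelet chemokine, was at 19.6118 CPM, Cxcr3 at 12.131 CPM, Cx3cr1 at 6.8742 CPM, Cxcr4 at 5.6611 CPM and Pf4 at 1.2131 CPM. The leukocyte genes Coro1a and Laptm5 were found in 7 and 6 of these cells. Of 5 B cell markers, 4 had reads in them, and the list summed to 3508 CPM.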

How the results depend on the processing

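No paired analysis was possible because the results come from no test, the cells of a gate being 1 sample; LN gates that share a pool are set side by side by pool in the report. The counts of members at least 2-fold apart stayed within 1.5 times of the reported count in all but 26 recomputations, which follow. For tumour CLEC against tumour EC, the count of higher members, reported as 1, was 0 with a pseudocount of 5 CPM and with a higher filter on low members, 2 with stricter cell filters, means of per-cell CPM, thinning or plate KM3 alone, 3 with plate KM4 alone and 4 with no filter on low members. The count of lower members, reported as 1, was 0 with the higher filter, 2 with a pseudocount of 0.5 CPM, stricter cell filters, plate KM3 alone or no filter, 3 with means of per-cell CPM or without the highest cell of each gene, and 4 with plate KM4 alone. Against macrophages, 9 members were higher with no filter, beside 5 reported.

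For LN GFP+ against LN GFP- cells, 1 member was lower over sinus-floor-lymphatic-like cells alone, beside 8. For LN GFPlow against LN GFP- cells, 3 were higher over those cells alone, beside 5, and 9 were lower without pool B and 8 with no filter, beside 5. For LN GFPlow against LN GFP+ cells, 1 was higher with a pseudocount of 5 CPM, 4 without pool C and 0 with the higher filter, beside 2, and 5 were lower with stricter cell filters and 8 with no filter, beside 3. The filters change which genes are counted and the plates and pools which cells; other causes were not tested.

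Of 818 recomputed ratios of named members, 433 lay outside the counting interval of the reported ratio, and 83 had moved by 2-fold or more. The 2-fold call was lost in 20 and gained in 40. The sign changed in 24 ratios reported as within 2-fold and in 3 of those past it: Ccl19 in tumour CLEC against tumour EC to -2.32 without the highest cells and to -2.69 (plate KM4 alone), and Cx3cl1 in LN GFP+ against LN GFP- cells to 0.68 without pool A. TMM scaling moved the median of all genes by 0.13 for tumour CLEC against tumour EC and by -0.12 for LN GFPlow against LN GFP+ cells. Pools B and C held 15 and 14 LN GFPlow cells, and pool C held 8 LN GFP- cells, which limits every value given for them.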

Other observations

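Several members lie next to each other in the genome, and neighbours were not always highest in the same gate. On chromosome 11 (GRCm38), Ccl2, Ccl7, Ccl11, Ccl12, Ccl8 and Ccl1 lie between 82035571 and 82305690; the 4 with reads were highest in macrophages, and Ccl11 and Ccl1 had none. Ccl5, Ccl9, Ccl6, Ccl3 and Ccl4 lie between 83525778 and 83664683, and all 5 were highest in macrophages. On chromosome 9, Ccr9, Cxcr6, Xcr1, Ccr1, Ccr3 and Ccr2 lie between 123678439 and 124113557; 4 were highest in macrophages and Ccr3 had no read.

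On chromosome 5, Cxcl1, highest over whole gates in LN GFP+ cells, and Cxcl2, highest in macrophages, are 10755 bases apart. Cxcl9, Cxcl10 and Cxcl11, between 92321347 and 92365485 on the same chromosome, were highest in macrophages, LN GFP+ cells and tumour CLEC in that order. On chromosome 4, Ccl19 (42754525 to 42756577) and Ccl21a (42772860 to 42773993) both encode Ccr7 ligands and are 16282 bases apart, and they were highest in LN GFP+ and LN GFP- cells in that order. Cx3cl1 on chromosome 8 (94772009 to 94782427) lies between Ccl22 and Ccl17, which had no read in any tumour or LN gate.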
